A study of Mus musculus with 8 samples.

Results

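The genes described here are 10 feedback brakes on the mitogen-activated protein kinase (MAPK) pathways: the dual-specificity phosphatases Dusp1, Dusp2, Dusp4, Dusp5, Dusp6, Dusp8 and Dusp10, the Sprouty genes Spry2 and Spry4, and the Sprouty-related gene Spred1. They were picked by symbol, as 10 of the 40840 genes in the tables of all 8 libraries, and all 10 passed the minimum of 10 reads over the 8 libraries that 19963 genes passed. RNA was sequenced from primary mouse hepatic stellate cells, cells that store vitamin A in the healthy liver and here had become myofibroblastic in culture (pMF-HSCs). They came from male C57BL/6J mice aged 15 to 18 weeks, with no transgene or deletion named in the labels, were sorted on their retinol autofluorescence and were kept for 7 days on plastic in medium with fetal serum, in both groups alike. The control group (n = 4) received the solvent DMSO, and the OGTi group (n = 4) received 50 µM OSMI-1, an inhibitor of O-GlcNAc transferase (OGT), each for 24 h. OGT attaches the sugar O-GlcNAc to nuclear and cytoplasmic proteins. Replicate numbers pair a control with an OGTi culture. The paper counts 4 independent experiments, but nothing in the sources used here says how many mice gave a culture. In the paired test, p-values measure how the difference between OGTi and control varied over these 4 pairs.

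MAPK cascades relay signals from growth factor receptors, matrix and stress to the nucleus through the kinases ERK, p38 and JNK. Dual-specificity MAPK phosphatases switch these kinases off by removing phosphate from both a threonine and a tyrosine of their activation loop, whereas Sprouty and Spred proteins act further up, between the receptor and Ras or Raf. Most of these genes are themselves transcribed in response to MAPK signalling and so form negative feedback loops, and in stellate cells platelet-derived growth factor acts through this route to drive proliferation.

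The stretches just before the RefSeq gene starts are shown for 3 genes: Dusp5 and Dusp6, since they changed in opposite directions, and Dusp1, which had the highest mean level of the 10 in both groups. The windows were taken from RefSeq promoters (GRCm38.p6; 8 of the 10 genes matched, Dusp4 and Spry4 had no entry), located by exact match in GRCm39 and cut where an annotated exon of the gene begins. Positions count back from the RefSeq start. The Dusp1 stretch lies at chr17:26727507-26727696 on the minus strand (-250 to -61), the Dusp5 stretch at chr19:53517326-53517531 on the plus strand (-250 to -45) and the Dusp6 stretch at chr10:99098843-99099067 on the plus strand (-250 to -26). In GENCODE vM39 the models of Dusp1 and Dusp6 reach further upstream, so these stretches are intronic to the longest models, whereas the Dusp5 stretch ends at the base before the gene. Antisense RNAs are annotated over the 3 starts, and the authors' counting used strand. Capitals mark motif matches, written 5′ to 3′.
Dusp1: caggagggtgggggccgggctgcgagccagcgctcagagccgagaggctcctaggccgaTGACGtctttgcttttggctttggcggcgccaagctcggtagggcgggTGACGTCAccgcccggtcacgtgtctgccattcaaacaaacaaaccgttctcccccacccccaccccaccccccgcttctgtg
Dusp5: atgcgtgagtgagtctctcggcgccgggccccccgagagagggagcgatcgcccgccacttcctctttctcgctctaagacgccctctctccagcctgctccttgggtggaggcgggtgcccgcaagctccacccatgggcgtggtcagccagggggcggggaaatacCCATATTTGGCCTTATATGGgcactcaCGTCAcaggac
Dusp6: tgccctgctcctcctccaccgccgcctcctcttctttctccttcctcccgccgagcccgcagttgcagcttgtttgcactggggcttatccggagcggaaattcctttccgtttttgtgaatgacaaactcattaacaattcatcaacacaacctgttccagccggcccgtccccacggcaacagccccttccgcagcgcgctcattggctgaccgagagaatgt

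The motifs searched on both strands were the cAMP response element (CRE, TGACGTCA), its half-site TGACG, which lies inside the full CRE, the AP-1 site TGANTCA, the ETS site CCGGAA, the TEAD site GGAATG and the CArG box, the site bound by serum response factor. In Dusp1 the capitals are a CRE at -143 to -136 and a separate half-site at -191 to -187. In Dusp5 they are adjoining CArG boxes at -82 to -73 and -72 to -63, followed by a half-site at -55 to -51 on the other strand. The Dusp6 stretch held none of these letters. Over whole windows of 300 bases, a CRE was found in 2 of 8 of the genes (Dusp1 and Dusp8) and in 1.79% of 32851 promoters, and a CArG box in 1 of 8 (Dusp5) and in 1.63% of promoters. The half-site was found in 4 of 8 (Dusp1, Dusp2, Dusp5 and Dusp8) against 20.8% of promoters, and the ETS site in 1 of 8 (Spry2) against 14.9%. The AP-1 and TEAD sites were found in 0 of 8, against 7.81% and 14.7% of promoters. The windows of the 8 genes held 57.3% to 73.3% G and C, against a median of 52.7% over all promoters, and the shares were not corrected for this. A match is a description of the letters, and no binding was measured.

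Library totals ran from 30068876 to 37372420 reads, so counting error was small for 9 of the 10 genes and large only for Dusp2. Values below are scaled counts, that is, read counts corrected for depth with TMM factors and brought to one common library size. Changes are log2 fold changes with their standard error from edgeR's quasi-likelihood test, fitted with replicate as a block, and a gene was called changed at a Benjamini-Hochberg adjusted p of at most 0.05 over all 19963 genes. In these cells 18.4% of all genes tested were called, 8.13% higher and 10.2% lower in OGTi. One library needs naming before the results. Control replicate 4 had 198 genes at least 4-fold below the lowest of the other 3 controls, Dusp1 and Dusp4 among them, and OGTi replicate 1 had 159 such genes in its group but none of the 10, whereas the other 6 libraries had 0 to 13. The fold changes and levels of Dusp1 and Dusp4 are therefore given with and without replicate 4.

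All 10 stellate cell markers were detected, with a summed level of 2265 to 4143 TPM (transcript abundance relative to length and to the whole library) in the control and 2023 to 3217 TPM in OGTi, and 3 of them (Lrat, Pdgfrb and Hgf) were called lower. All 8 endothelial markers averaged under 1 TPM (sums of 0.95 to 1.79 TPM in the control and 0.32 to 1.25 TPM in OGTi, 1 called lower, Lyve1), and so did all 8 hepatocyte markers (0.11 to 0.59 and 0.57 to 1.69 TPM, 1 of 4 tested called higher, Cyp2e1, and Tat at 0 throughout). At so low a level the Cyp2e1 call is given as a description. Of 8 macrophage markers, Adgre1, Clec4f, Ptprc and Marco averaged under 1 TPM (Adgre1 at most 0.96, in control replicate 3), while Lyz2, Cd68, Cd14 and Csf1r were present, with means of 60.3, 22.8, 13.5 and 4.89 TPM in the control and 70.0, 50.6, 5.83 and 3.87 TPM in OGTi. The sums over these 8 were 62.0 to 184 TPM and 92.7 to 232 TPM, with Cd68 called higher and Cd14 lower. Of 8 cholangiocyte and mesothelial markers, 4 averaged under 1 TPM (sums of 91.7 to 148 TPM and 57.8 to 97.98 TPM, Krt19 called lower and Sox9 higher). The part of these marker changes in the results below was not tested.

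The 10 genes did not move together under OGTi. Of the 10 genes, Dusp5 was called higher and Dusp6 and Spry2 were called lower, while 7 did not pass the test. That is 1 of 10 higher and 2 of 10 lower, beside 8.13% and 10.2% of all genes tested (18.4% in either direction), and nothing is read from so small a count. The median log2 fold change of the 10 was -0.08, beside 0.01 over all genes tested. The groups did not overlap for Dusp1, Dusp5, Dusp6 and Spry2, while 23.5% of all genes tested had groups without overlap. They did not overlap for Dusp2 either, but it passed the minimum of 10 reads only through the OGTi group, so this is given as a description. In RNA from whole cultures, fewer cells of a type and less RNA per cell cannot be told apart.

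**Figure D1:**
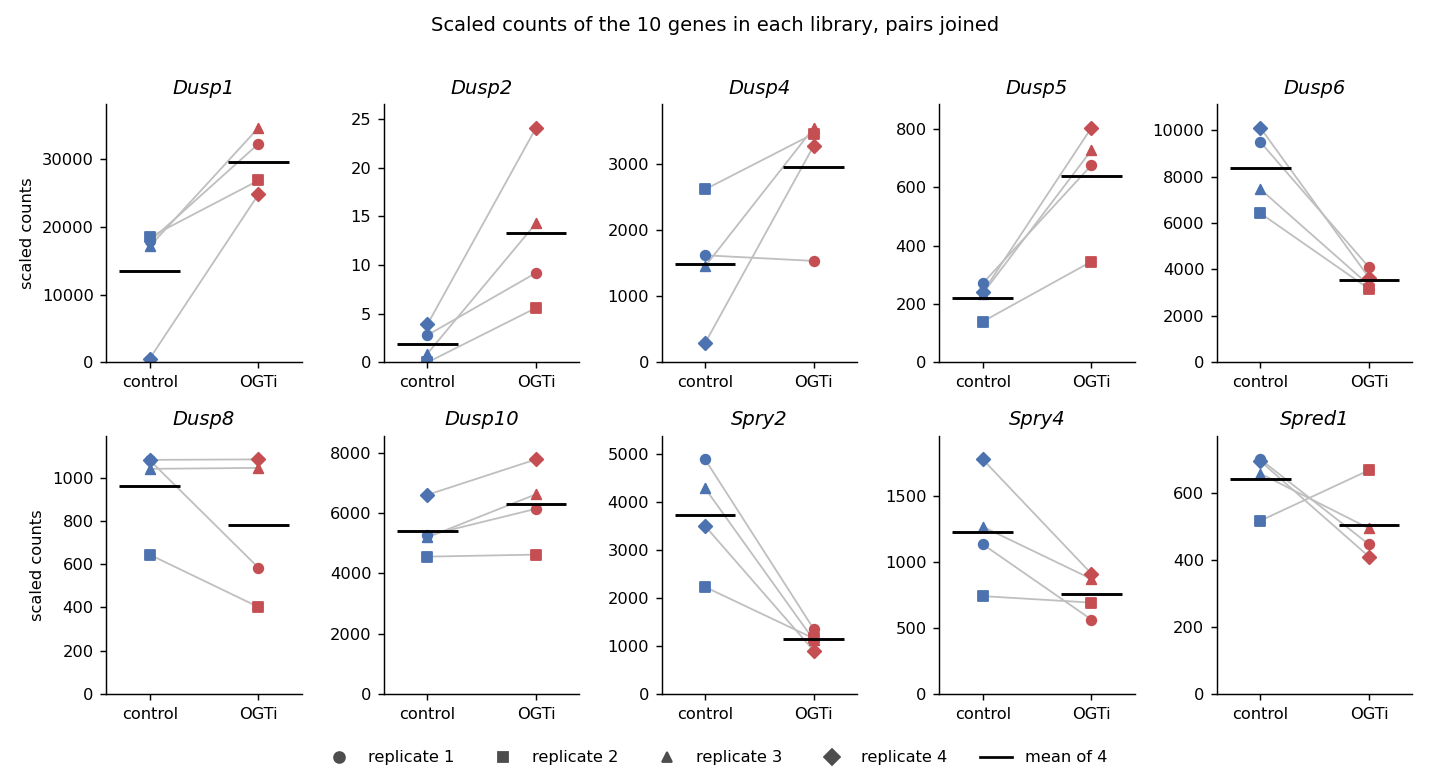
Scaled counts of the 10 genes in each library (vertical axis, linear from 0, one scale per gene), with control and OGTi replicates 1 to 4 joined by pair and a bar at each group's mean. Dusp5 rose and Dusp6 and Spry2 fell in 4 of 4 pairs, and Dusp1 in control replicate 4 lay at 568.5 against at least 17100.4 in the other controls.

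The ERK-selective cytoplasmic phosphatase Dusp6 (chromosome 10, 99086564 to 99103361, plus strand, GRCm39) is the best known feedback inhibitor of ERK itself. It stood at 9481.6, 6418.7, 7453.1 and 10092.4 scaled counts in control replicates 1 to 4 and at 4092.4, 3164.8, 3325.9 and 3646.9 in OGTi replicates 1 to 4. Every treated culture lay below every control. The group means were 8361 ± 1718 and 3558 ± 409 (SD, n = 4), a 2.35-fold lower mean, and the log2 fold change was -1.22 ± 0.19 (edgeR, adjusted p = 0.00229). The 4 pairs were close to each other, with log2 differences from -1.02 to -1.47, and the controls varied more than the treated cultures.

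Spry2 (chromosome 14, 106128766 to 106136446, minus strand) encodes a Sprouty protein that restrains Ras-ERK signalling downstream of receptor tyrosine kinases. Its controls gave 4894.5, 2231.9, 4291 and 3504.2 scaled counts and the treated cultures 1357, 1158, 1126.7 and 904. The treated values were all below the lowest control, replicate 2, and that pair also showed the smallest drop, -0.95 on the log2 scale against -1.85 to -1.95 in the other 3. The mean went from 3730.4 ± 1149.8 to 1136 ± 186 (SD, n = 4), 3.28-fold lower, with a log2 fold change of -1.67 ± 0.24 (edgeR, adjusted p = 0.00156). This was the largest decrease of the 10 genes in the main analysis.

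Dusp5 (chromosome 19, 53517532 to 53530862, plus strand), a nuclear phosphatase that is selective for ERK, moved the other way. Control replicates 1 to 4 had 270.6, 139.8, 235.7 and 239.9 scaled counts, and their OGTi partners 674.9, 345.1, 726.1 and 802.9. Replicate 2 was lowest in both groups, and even its treated value exceeded every control. The mean rose 2.88-fold, from 222 ± 56.6 to 637 ± 202 (SD, n = 4), and the log2 fold change was 1.50 ± 0.23 (edgeR, adjusted p = 0.00197). Log2 differences within pairs ran from 1.297 to 1.74. Of the ERK-selective phosphatases among the 10, the nuclear one thus rose and the cytoplasmic one fell in the same cultures, and both calls, like that of Spry2, held in 16 of 16 alternative settings.

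Dusp1 (chromosome 17, 26724564 to 26781102, minus strand), a nuclear phosphatase for p38, JNK and ERK that is induced within minutes by stress, did not pass the test. It gave 17831.4, 18458.4, 17100.4 and 568.5 scaled counts in the controls and 32217.9, 26820.4, 34574.5 and 24755.5 in OGTi. The groups did not overlap, and OGTi was higher in 4 of 4 pairs, but control replicate 4 stood 30.1-fold below the lowest of its group. The log2 fold change was 1.66 ± 0.69 (edgeR, adjusted p = 0.127) with that pair, and 0.81 ± 0.21 (adjusted p = 0.0430) without it. With only control replicate 4 left out and no block, it was 0.75 ± 0.20 (adjusted p = 0.0348), and the OGTi mean was 1.66-fold the mean of the other 3 controls. The estimate was therefore smaller, and its error smaller still, without that library. Jun, an immediate early gene chosen here after its values were seen, was also low in control replicate 4, at 437.4 scaled counts against 3235.3 to 4795.6 in the other controls. Immediate early genes as a list did not share this, since 9 of the 15 were highest of the 4 controls in replicate 4 and 5 were lowest, Nr4a1 for one at 969.3 against 312.2 to 557.1. The cause of the low Dusp1 value was not tested.

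Dusp4 (chromosome 8, 35274442 to 35287048, plus strand) encodes another nuclear phosphatase for ERK and JNK. Its controls stood at 1621.7, 2618.8, 1454 and 291.9 scaled counts and the treated cultures at 1536.2, 3461.8, 3549.9 and 3278.2. The groups overlapped: pair 1 showed no increase, pairs 2 to 4 did, and control replicate 4 was again the lowest, 4.98-fold below the next control. The log2 fold change of 1.20 ± 0.50 did not pass (edgeR, adjusted p = 0.129), nor did the 0.55 ± 0.30 without replicate 4 (adjusted p = 0.286), and leaving out any other pair gave no call either, with estimates up to 1.68. With all 4 pairs, it did pass when DESeq2 or no filter on low counts was used (1.25 and 1.20, adjusted p = 0.0386 and 0.00421).

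Dusp2 (chromosome 2, 127177957 to 127180296, plus strand), a nuclear phosphatase known best from activated immune cells, was close to undetected. Only 3, 0, 1 and 4 reads were assigned to it in the control libraries and 9, 5, 13 and 21 in the OGTi libraries. The groups did not overlap, and all 4 pairs were higher in OGTi, but with so few reads the log2 fold change of 2.91 ± 0.94 was imprecise and did not pass (edgeR, adjusted p = 0.0570). It passed in 6 of 16 alternative settings.

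The phosphatases that prefer the stress kinases JNK and p38, Dusp8 and Dusp10, showed no called change. Dusp10 (chromosome 1, 183745499 to 183807842, plus strand) had 5255.9, 4553.5, 5191.6 and 6603.7 scaled counts in the controls and 6140.6, 4621, 6623.1 and 7779.7 in OGTi. The treated value was the higher of each pair, by 0.02 to 0.35 on the log2 scale, and the groups overlapped. Its log2 fold change was 0.21 ± 0.18 (edgeR, adjusted p = 0.489), and its sign turned to -0.10 when TPM were tested in place of counts.

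Dusp8 (chromosome 7, 141633226 to 141649580, minus strand) stood at 1080.5, 643.7, 1040.5 and 1082 scaled counts in the controls and at 583.8, 402, 1045 and 1084.3 in OGTi. Pairs 1 and 2 were lower in OGTi, by 0.89 and 0.68 on the log2 scale, while pairs 3 and 4 were nearly equal. The log2 fold change was -0.39 ± 0.24 (edgeR, adjusted p = 0.307), and it was -0.22 without replicate 1 and -0.10 with a correction for transcript length.

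Spry4, a second Sprouty inhibitor of Ras-ERK signalling, was lower in 4 of 4 pairs but did not pass the threshold. The controls gave 1132.8, 740.4, 1266.1 and 1775.7 scaled counts and the treated cultures 563.3, 691.3, 870.7 and 910.9. The groups overlapped through control replicate 2, whose partner was lower by only 0.10 on the log2 scale. Its log2 fold change was -0.65 ± 0.24 (edgeR, adjusted p = 0.0832), and it passed in 3 of 16 alternative settings, among them scaling by library totals alone (-0.85, adjusted p = 0.0374), and was -0.41 with the length correction.

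Spred1 (chromosome 2, 116951524 to 117018277, plus strand), which recruits neurofibromin to the membrane to switch Ras off, had 698.9, 516.2, 656.5 and 693.7 scaled counts in the controls and 445.5, 666.7, 493.3 and 408.9 in OGTi. Pair 2 was higher and the other 3 pairs were lower in OGTi. The log2 fold change of -0.37 ± 0.25 did not pass (edgeR, adjusted p = 0.361). It was -0.58 without replicate 2, -0.22 without replicate 4 and -0.12 with the length correction.

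**Figure D2:**
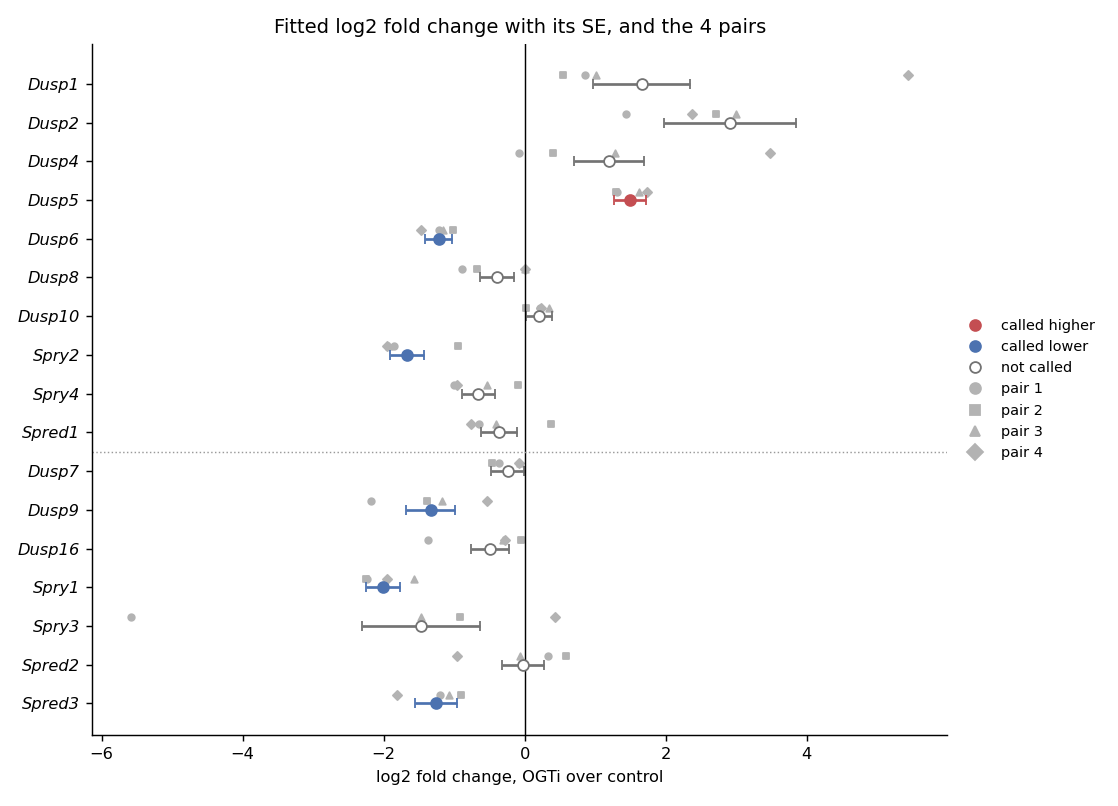
Log2 fold changes (OGTi over control, horizontal axis) of the 10 genes and of 7 further genes of the same families, with bars of 1 standard error, the value of each pair and the result of the test. Dusp5 was called higher, Dusp6, Spry2, Dusp9, Spry1 and Spred3 were called lower, and pair 4 of Dusp1 lay at 5.44, far from the other pairs.

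Of the 7 remaining genes of the same families, 3 were called lower and 0 higher, beside 10.2% and 8.13% of all genes tested, with a median log2 fold change of -1.26. Leaving out any 1 pair reduced the 3 to 1 or 2. Spry1, the Sprouty gene closest in role to Spry2, had the lowest log2 fold change of all 17 in the main analysis. Without replicate 4 the scarce Spry3, not called, was lower still (-2.23 against -2.01). Spry1 had 1041.1, 1111.6, 761.5 and 721.6 scaled counts in the controls and 220.2, 233.4, 254.9 and 186.1 in OGTi, with no overlap. Its mean was 4.06-fold lower and the log2 fold change -2.01 ± 0.24 (edgeR, adjusted p = 0.000607), a call that held in 16 of 16 alternative settings. Dusp9, a cytoplasmic ERK phosphatase of the same subgroup as Dusp6, stood at 166, 158.3, 116 and 77.1 scaled counts in the controls and at 35.8, 60.3, 50.8 and 52.8 in OGTi. All treated values were below all controls, and the log2 fold change was -1.33 ± 0.34 (edgeR, adjusted p = 0.0237). Spred3 gave 98.1, 102.9, 145.5 and 203.3 scaled counts in the controls and 42, 54.7, 68.4 and 57.4 in OGTi, again without overlap (log2 fold change -1.26 ± 0.30, edgeR, adjusted p = 0.0165). The calls of Dusp9 and Spred3 held in 11 of 16 settings each. Dusp9 lost its call without replicate 1, 2 or 3 (-1.05, -1.28 and -1.38, adjusted p = 0.0782, 0.0799 and 0.0763), and Spred3 without replicate 3 or 4 (-1.32 and -1.06, adjusted p = 0.0646 and 0.0896).

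The other 4 did not pass. Dusp7, the third phosphatase of the cytoplasmic ERK subgroup, had a log2 fold change of -0.24 ± 0.23 (edgeR, adjusted p = 0.527), and Dusp16, a JNK and p38 phosphatase, one of -0.49 ± 0.27 (adjusted p = 0.244). The Dusp7 value was -0.14 without replicate 2 and -0.06 with the length correction. The Dusp16 value was -0.21 without replicate 1, whose OGTi library stood at 177.2 scaled counts against 384 to 522.6 in the other treated cultures, and -0.21 with the length correction. Spry3 was scarce and ran from 28.1 to 46.8 scaled counts in the controls and from 0 to 45.9 in OGTi (-1.47 ± 0.84, edgeR, adjusted p = 0.264). Its value was -0.65 without replicate 1, whose OGTi library had 0 reads of it, and -2.23 without replicate 4. Spred2 had a log2 fold change of -0.02 ± 0.30 (edgeR, adjusted p = 0.975), whose sign changed with the processing. In the cytoplasmic ERK subgroup, Dusp6 and Dusp9 were thus called lower and Dusp7 was not, and of the Sprouty genes Spry1 and Spry2 were called and Spry3 and Spry4 were not.

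Levels between genes were compared in TPM, which corrects for transcript length. In the controls, Dusp1 was the most abundant (384 ± 245 TPM, SD, n = 4), followed by Dusp6 (159 ± 32.7), Dusp10 (118 ± 19.1), Spry2 (71.0 ± 22.2) and Dusp4 (33.1 ± 20.8). Below them came Dusp8 (10.03 ± 2.28 TPM), Spry4 (9.85 ± 3.67), Dusp5 (6.83 ± 1.76) and Spred1 (5.16 ± 0.717), with Dusp2 last (0.0675 ± 0.0640). Neighbours in this order overlapped in their ranges over the 4 cultures, except at the steps from Dusp10 to Spry2 and from Spred1 to Dusp2. In control replicate 4 alone, Dusp1 stood at 16.3 TPM and Dusp4 at 6.51 TPM, so that Dusp1 lay below Dusp6, Dusp10 and Spry2 there. Without that library the order of the means was the same, with Dusp1 at 506 ± 11.3 TPM and Dusp4 at 41.96 ± 13.4 TPM (SD, n = 3), and Dusp1, Dusp6 and Dusp10 no longer overlapped, nor did Dusp4 and Dusp8.

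In OGTi the order was Dusp1 (671 ± 87.7 TPM), Dusp10 (111 ± 23.0), Dusp4 (53.9 ± 20.9), Dusp6 (53.9 ± 2.98), Spry2 (16.9 ± 2.60) and Dusp5 (15.5 ± 4.54). Dusp8 (6.46 ± 2.87 TPM), Spry4 (4.93 ± 1.27), Spred1 (3.37 ± 1.11) and Dusp2 (0.372 ± 0.232) followed. Overlapping neighbours were Dusp4 with Dusp6, Spry2 with Dusp5, Dusp8 with Spry4 and Spry4 with Spred1, and the other steps were clear of overlap. Dusp6, by its mean next after Dusp1 in the controls but overlapping Dusp10 there, lay below Dusp10 in OGTi. Its OGTi mean was level with that of Dusp4. In OGTi, Dusp5 reached the range of Spry2, which in the controls began at 41.6 TPM against at most 8.21 TPM for Dusp5.

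The genes whose pattern over the 8 libraries was most like that of a called gene were found among 10708 genes with a mean of at least 100 scaled counts, by the smallest root mean square (RMS) difference of log2 scaled counts centred on each gene's mean. For Dusp5 they were Ccn1, a secreted matrix-associated protein (RMS 0.179), and Gdf9, a growth factor known from the oocyte (0.201). For Dusp6 they were Magohb, a core protein of the exon junction complex (0.0979), and Prps1l3 (0.143). For Spry2 they were Paip1, which binds the poly(A)-binding protein (0.130), and Dpysl2, a microtubule-binding protein (0.242). These are descriptions over libraries that share the treatment contrast.

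The rest of the MAPK route was described by gene lists, each read against the 18.4% of all genes called and their median log2 fold change of 0.01. Atypical dual-specificity phosphatases, which lack the MAPK-docking domain, gave 3 higher, 0 lower and 9 not called of 12 tested (median 0.21). Dusp13 rose from 1.57 ± 1.94 to 33.2 ± 10.4 scaled counts (SD, n = 4; log2 fold change 4.44 ± 0.82, edgeR, adjusted p = 0.00487), so it was nearly absent in the controls. With 0, 5, 1 and 1 reads there, it passed the minimum of 10 only through the OGTi group, and without it the list had 2 higher of 11. Dusp28 (1.24 ± 0.33, adjusted p = 0.0265) and Dusp23 (0.85 ± 0.24, adjusted p = 0.0366) were called higher as well, calls that held in 7 and 6 of 16 alternative settings. Other inhibitors of receptor signalling gave 2 higher, 0 lower and 8 not called of 10 (median 0.20), namely the Ras GTPase-activating protein gene Rasal2 (1.31 ± 0.25, edgeR, adjusted p = 0.00622) and Lrig1, which promotes the degradation of growth factor receptors (1.04 ± 0.28, adjusted p = 0.0298), called in 13 and 6 of 16 alternative settings. Leaving out any 1 pair gave 1 to 2 higher genes on either list.

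**Figure D3:**
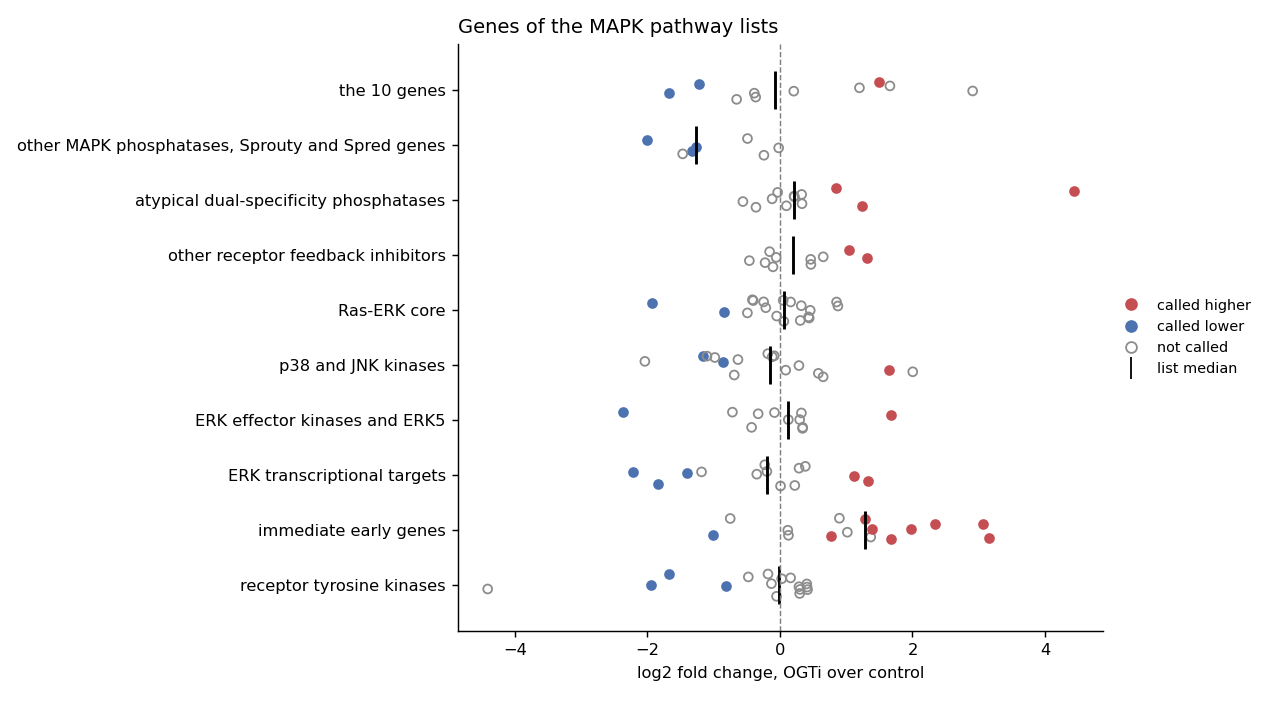
Log2 fold changes (OGTi over control, horizontal axis) of the tested genes of each list, coloured by the result of the test, with a vertical bar at each list's median. The median of the immediate early genes lies at 1.28 and that of the other phosphatase, Sprouty and Spred genes at -1.26, while those of the other 8 lists lie between -0.20 and 0.21.

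Receptors and kinases of the cascades gave counts near the background. Of 16 receptor tyrosine kinases, 3 were lower, 0 higher and 13 not called (median -0.01). Those called were both platelet-derived growth factor receptor genes, Pdgfrb (from 9862 ± 4625 to 3005 ± 1068 scaled counts, SD, n = 4; -1.68 ± 0.24, edgeR, adjusted p = 0.00154) and Pdgfra (-1.95 ± 0.38, adjusted p = 0.00655), and Axl, the receptor for Gas6 (-0.81 ± 0.25, adjusted p = 0.0465), whose call held in only 6 of 16 alternative settings. The Ras-ERK core gave 2 lower, 0 higher and 16 not called of 18 tested (median 0.05). Its called genes were Braf, a Raf kinase (from 1167 ± 288 to 327 ± 144 scaled counts; -1.93 ± 0.35, edgeR, adjusted p = 0.00472), and the Ras gene Nras (-0.84 ± 0.20, adjusted p = 0.0153), whose call held in 12 of 16 settings. Leaving out 1 pair gave 1 to 2 lower genes on this list, with 1 when replicate 3 or 4 was dropped.

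Among 16 p38 and JNK pathway kinases, 1 was higher, 2 were lower and 13 were not called (median -0.15), and leaving out any 1 pair gave 1 to 2 higher and 0 to 1 lower. Map2k3, a kinase that activates p38, rose from 7441 ± 1837 to 23178 ± 5007 scaled counts (SD, n = 4; 1.65 ± 0.25, edgeR, adjusted p = 0.00192). Map3k4, a kinase at the top of the cascade (-1.17 ± 0.31, adjusted p = 0.0253) and the p38 isoform gene Mapk11 (-0.85 ± 0.24, adjusted p = 0.0357) fell, and their calls held in 12 and 10 of 16 alternative settings. Of 11 kinases that act after ERK or form the ERK5 branch, 1 was higher, 1 lower and 9 not called (median 0.13). They were Mknk2, which phosphorylates the cap-binding factor eIF4E (1.68 ± 0.21, edgeR, adjusted p = 0.000874), and the scarce Rps6ka1, at 26.0 ± 10.4 and 6.32 ± 7.16 scaled counts (-2.37 ± 0.69, adjusted p = 0.0377, 9 of 16 settings), and the lower count was 0 to 1 over the pairs left out.

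Larger shares were called on the lists of genes transcribed downstream of the cascades, without a test between lists. Of 13 ERK transcriptional targets, 2 were higher, 3 lower and 8 not called (median -0.20). Ccnd1, which encodes cyclin D1 of the cell cycle, went from 1638 ± 354 to 401 ± 239 scaled counts (SD, n = 4; -2.22 ± 0.34, edgeR, adjusted p = 0.00218). The ETS factor gene Etv1 (-1.84 ± 0.35, adjusted p = 0.00599) and Hmga2, a chromatin protein gene (-1.41 ± 0.39, adjusted p = 0.0303) were lower too, while the urokinase receptor gene Plaur (1.33 ± 0.23, adjusted p = 0.00337) and the AP-1 gene Fosl1 (1.12 ± 0.22, adjusted p = 0.00623) were higher. Of 15 immediate early genes, 8 were higher, 1 lower and 6 not called (median 1.28), a share of 60% against 18.4%. The lists were chosen with earlier results of these data known, so these shares are given as a description. The orphan receptor gene Nr4a1 rose from 550.2 ± 299 to 5881 ± 4976 scaled counts (3.15 ± 0.26, edgeR, adjusted p = 0.000201), followed by the stress factor gene Atf3 (3.06 ± 0.30, adjusted p = 0.000294) and the mRNA decay factor gene Zfp36 (1.98 ± 0.20, adjusted p = 0.000335). Egr2, a zinc finger factor gene, fell (-1.01 ± 0.25, edgeR, adjusted p = 0.0201), and its call, like that of Hmga2, held in 10 of 16 alternative settings. Over the pairs left out, 7 to 9 immediate early genes were higher and 0 to 1 lower. All 24 genes named from these lists kept their direction in all 16 alternative settings, and 11 of them kept their call in each. Dusp13 is in both counts, though it passed the minimum of 10 reads only through the OGTi group.

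**Figure D4:**
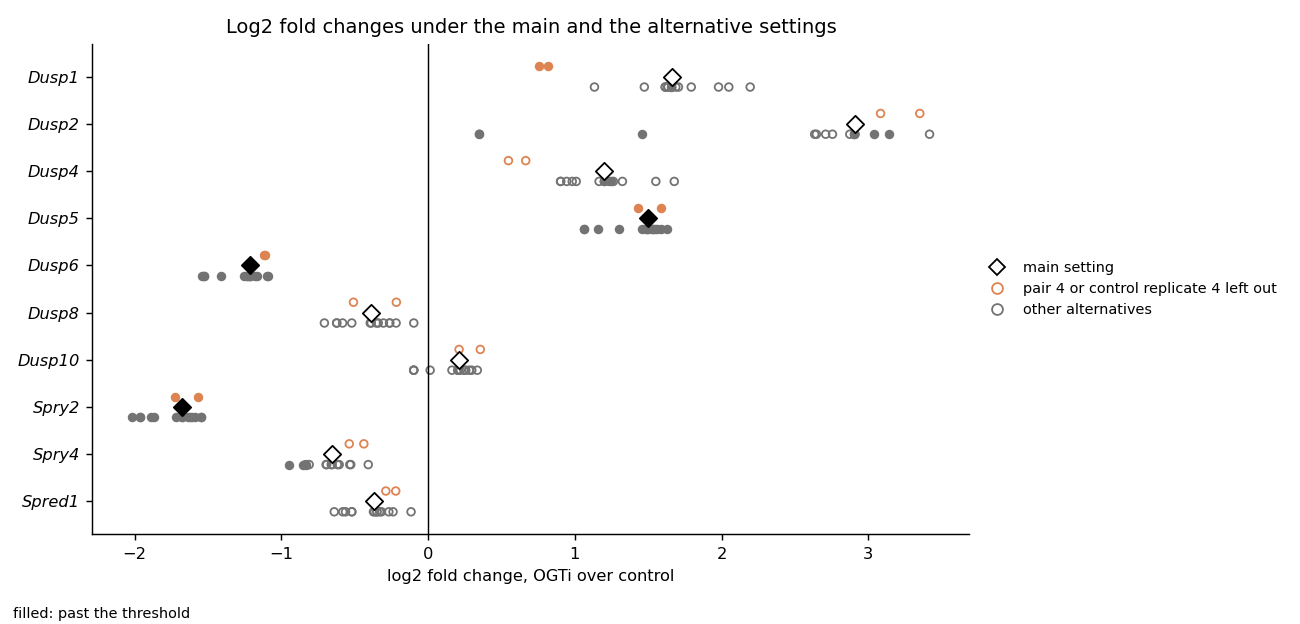
Log2 fold changes (OGTi over control, horizontal axis) of the 10 genes in the main analysis (diamonds) and in 16 alternative settings (circles), those without pair 4 or control replicate 4 in orange, filled where the result passed the threshold. Dusp5, Dusp6 and Spry2 are filled throughout, and Dusp1 ranges from 0.75 (without control replicate 4 and the block) to 2.19.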

How the data were processed

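Stranded, paired-end poly(A) libraries were mapped by the authors with Bowtie2 2.3.5.1 to mm39 and quantified with RSEM 1.3.1 (versions from the submitters' processing notes). The authors deposited, per library and gene, expected counts, estimated by RSEM and not always whole, and TPM, scaled by length and depth. None of the 10 genes had a fractional count. Their comparison table, which repeats the counts and adds their DESeq2 fold changes and p-values, was not used, and 0 other per-sample columns were left out. Here expected counts were rounded, genes under 10 counts in total removed, libraries scaled by TMM and tested in edgeR 4.0.16 (R 4.3.3, glmQLFit and glmQLFTest, replicate block, Benjamini-Hochberg), with limma 3.58.1 and DESeq2 1.42.0 as alternatives. The script was tested on simulated data. The study's methods pair the samples by replicate. Deviations from group means correlated at 0.105 to 0.318 in same-numbered and at -0.312 to 0.208 in other pairs of libraries. The standard error is the log2 fold change divided by the root of F.

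The 10 genes and all lists were chosen with earlier results of these data known. Named were these genes, the 7 others of their families, up to 3 called genes per direction of each other list by adjusted p, and the 2 genes nearest in pattern to each called gene. The lists cover atypical phosphatases, receptor feedback inhibitors, the Ras-ERK core, p38 and JNK kinases, ERK effector kinases, ERK transcriptional targets, immediate early genes, receptor tyrosine kinases and markers of 5 cell types. Gene positions are from GENCODE vM39 on GRCm39.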

Additional observations from a re-analysis of the deposited data

Results flagged for a closer look

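Each group of 4 libraries was searched, for these 10 genes and the 7 others of their families, for a library far from the rest, where Dixon's ratio of its gap to the group's range passes the 95% critical value. Chance marks about 1 in 20 groups, or 1.7 of the 34 examined, and 3 were found. Dusp1 stood at 568.5 scaled counts in control replicate 4, while the other controls ran from 17100.4 to 18458.4. Dusp4 stood at 1536.2 scaled counts in OGTi replicate 1, whereas its group otherwise ran from 3278.2 to 3549.9. Dusp8 stood at 643.7 scaled counts in control replicate 2, against 1040.5 to 1082 in the other controls. The cause of these values was not tested.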

How the results depend on the processing

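Over 16 alternative settings, 143 of the 160 log2 fold changes of the 10 genes kept sign and call, 14 newly passed it and 3 reversed. Dusp5, Dusp6 and Spry2 kept their calls in all 16. Of the 10 genes, 3 were called (1 higher, 2 lower), and the count was 5 (3 higher) with DESeq2, 6 (4 higher) with no low-count filter, and 5 (2 higher) with limma on log2(TPM + 1) or log2(TPM + 0.1). With upper-quartile scaling, with filterByExpr, and without control replicate 4 and the replicate block, 2 were higher. Leaving out 1 pair at a time gave 3 to 4 called, 1 to 2 of them higher and 2 lower. Dusp1 was 1.66 (adjusted p = 0.000206) with no low-count filter, 0.75 without control replicate 4 and the replicate block, and 0.81 to 2.19 over the pairs left out, of which only that without replicate 4 passed. Dusp2 passed with DESeq2 (3.14), upper-quartile scaling (3.04), no low-count filter (2.90), filterByExpr (2.90), log2(TPM + 1) (0.35) and log2(TPM + 0.1) (1.46). The counts of higher genes in these settings thus include Dusp2, which reached the minimum of 10 reads only through the OGTi group. Dusp4 passed with DESeq2 (1.25) and no low-count filter (1.20, adjusted p = 0.00421), and Spry4 with library totals alone (-0.85), log2(TPM + 1) (-0.83) and log2(TPM + 0.1) (-0.95). Dusp10 reversed to -0.10 in all 3 fits to TPM (adjusted p = 0.602 to 0.631). Spred2, not called, reversed to 0.0282 with DESeq2, 0.11 with upper-quartile scaling, 0.0154 with filterByExpr, 0.12 with the replicate block and a length correction, 0.24 without control replicate 4 and the replicate block, and ranged from -0.20 to 0.30 over the pairs left out.

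Without the replicate block, the paired design's term, 3 of the 10 genes were called, Dusp5 (1.52), Dusp6 (-1.23) and Spry2 (-1.71), and 2991 genes in all against 3666. Of all genes, 1623 were higher and 2043 lower. Lower genes numbered 3780 with log2(TPM + 1) and 3708 with log2(TPM + 0.1), and 847 were higher with log2(TPM + 1) and no filter. At an adjusted p of at most 0.01 there were 1668 (751 higher, 917 lower), and without both control replicate 4 and the replicate block, 2342 (1173 lower), against 2991 without the block alone. Leaving out 1 pair gave 1905 to 3124 (843 to 1433 higher, 1062 to 1744 lower), lowest without replicate 3. Of the other pathway lists' genes, 32 were called (17 higher, 15 lower). Lower ones numbered 27 and 26 in the filtered TPM fits, 19 were called (8 higher) without the TPM filter, 19 (6 lower) at 0.01, and 19 to 30 (13 to 17 higher, 6 to 13 lower) over the pairs left out. Over all genes the median, 0.01, was 0.13 with upper-quartile scaling, 0.14 with no low-count filter, -0.19 with library totals alone, and -0.21 and -0.34 in the filtered TPM fits, so changes there are relative to that shift. The cause was not tested. Depth limited Dusp2 alone of the 10 genes, with 0 to 21 reads per library.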
